A study of Arabidopsis thaliana with 8 samples.

Results

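The 3 genes described here act in the redox chemistry of the chloroplast and its copper supply: NTRC (AT2G41680), the plastid peroxiredoxin IIE gene AT3G52960, and CCS (AT1G12520). They were chosen by name, as the probes whose platform annotation gives exactly 1 of these genes. Each gene had 1 such probe, so the group is 3 of the 692 single-gene probes among 3439 probes in all. Wild-type plants (WT) and the *atpd* mutant of *Arabidopsis thaliana* were each measured on 4 arrays of total RNA. Both are of the Wassilevskija ecotype and were grown on Murashige and Skoog (MS) medium. The mutant lacks the delta subunit of ATP synthase. The labels give no age, tissue, mutant line or number of plants, nor whether arrays of a genotype came from separate cultures, so the p-values measure only the spread between arrays, which may be technical. The comparison addresses which transcripts change when this subunit is lost.

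In the illuminated chloroplast, electrons from photosystem I pass through ferredoxin to thioredoxins, which switch Calvin cycle enzymes on by reducing their disulfides. NTRC carries a thioredoxin reductase and a thioredoxin domain in a single protein and draws on NADPH, so it can work in the dark as well. It is best known as the reductant of 2-Cys peroxiredoxins. Peroxiredoxin IIE is a stromal thiol peroxidase that reduces hydrogen peroxide and organic peroxides. CCS hands copper to the copper/zinc superoxide dismutases of the cytosol and the chloroplast, which turn superoxide into hydrogen peroxide.

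The deposited values are intensities on a linear scale from 0 to 100, and the number of arrays limits the precision. How they were made is not given in the sources used here. On each array 395 to 430 probes read 0. The genotypes differed in the shape of the whole distribution. The median of values above 0 was 0.279 to 0.303 on WT arrays and 0.613 to 0.705 on *atpd* arrays, and the 10th percentile was 0.0768 to 0.0886 against 0.203 to 0.260. Dim probes were thus higher in *atpd* as a class, and all 3 genes lay below the median on every WT array. The median log2 change over 2921 tested probes was 0.996 as deposited and -0.09 after quantile normalisation, against -0.17 with array medians made equal and 0.03 with cyclic loess. Each gene is therefore given as deposited, by its percentile rank among the probes above 0 on the same array, which no scaling of an array alters, and after quantile normalisation. Arrays also fell into sets within each genotype, replicates 1 and 2 apart from replicates 3 and 4. This split was noticed in these data and is not in the labels. Of 6 leaf marker genes fixed as a list, only LHB1B2, an antenna gene with near-identical copies, had a tested probe. It was among the brightest probes in both genotypes (mean ranks 99.8 and 99.3) and fell from an intensity of 62.3 ± 3.70 to 20.2 ± 2.79 (SD, n = 4 in each). Its log2 change was -1.14 after quantile normalisation (limma adjusted p = 0.000717), -1.63 as deposited, -2.80 with equal array medians and -0.37 with cyclic loess (adjusted p = 0.0562). None of 6 root markers had one. No probe was annotated to ATPD, so the labels were not checked against the missing gene.

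All 3 genes were above 0 on all 8 arrays. After quantile normalisation 1 rose in *atpd* (NTRC), 1 fell (CCS) and 1 did not pass the test (AT3G52960). Over all tested probes, limma called 51.8% at an adjusted p of 0.05, 21.4% higher and 30.4% lower, so 2 calls among 3 genes is close to the share of all probes. NTRC was also called higher and CCS lower with equal medians (18.7% and 32.9% of all probes) and with cyclic loess (22.6% and 24.7%). As deposited all 3 were called higher, as were 62.6% of all probes. Within replicates 1 and 2 none of the 3 was called, where 55.3% of all probes were, and within replicates 3 and 4 all 3 were called, where 59.2% were.

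NTRC had a higher mean in the mutant, both by deposited intensity and by rank. Its deposited intensity was 0.218, 0.261, 0.193 and 0.187 on WT replicates 1 to 4 and 0.693, 0.555, 0.789 and 0.892 on *atpd* replicates 1 to 4. Every *atpd* array lay above every WT array. The ratio of the means (0.732 ± 0.144 over 0.215 ± 0.0334, SD, n = 4 in each) was 3.41. Such a separation was common as deposited: 59.4% of the 2848 probes above 0 on all arrays had all *atpd* values above all WT values. By rank, NTRC stood at 36.8, 47.0, 31.97 and 30.1 on the WT arrays and at 56.9, 44.7, 58.4 and 65.3 on the *atpd* arrays. Here the groups overlapped, since *atpd* replicate 2 lay below WT replicate 2. Full separation upward by rank was found in 20.9% of probes. The mean rank rose from 36.5 to 56.3, a difference of 19.9 points (exact permutation test over all 70 splits of the arrays, two-sided p = 0.0571, adjusted over 2848 probes 0.103).

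After quantile normalisation the NTRC transcript rose 1.498-fold, a log2 change of 0.58 (SE 0.18, 95% interval 0.17 to 0.996, limma adjusted p = 0.0245). Equal array medians gave 0.59 and cyclic loess 0.58, both past the threshold. As deposited it was 1.76, which is 0.77 above the median change of all probes on that scale. The increase was unequal in the array sets. It was 0.25 (adjusted p = 0.321) in replicates 1 and 2, where the ranks of the genotypes overlapped, and 0.91 (adjusted p = 0.00678) in replicates 3 and 4, where they did not. The test of that difference gave 0.66 (SE 0.24, adjusted p = 0.144, limma interaction). The NTRC call was lost when replicate numbers entered as a block (adjusted p = 0.0591), when array pairs were a random block (0.156) and for pair means (0.218). Leaving out any of 5 arrays also ended it, namely WT replicates 3 (0.0550) and 4 (0.0571) and *atpd* replicates 1 (0.0555), 3 (0.0610) and 4 (0.0718).

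**Figure D1:**
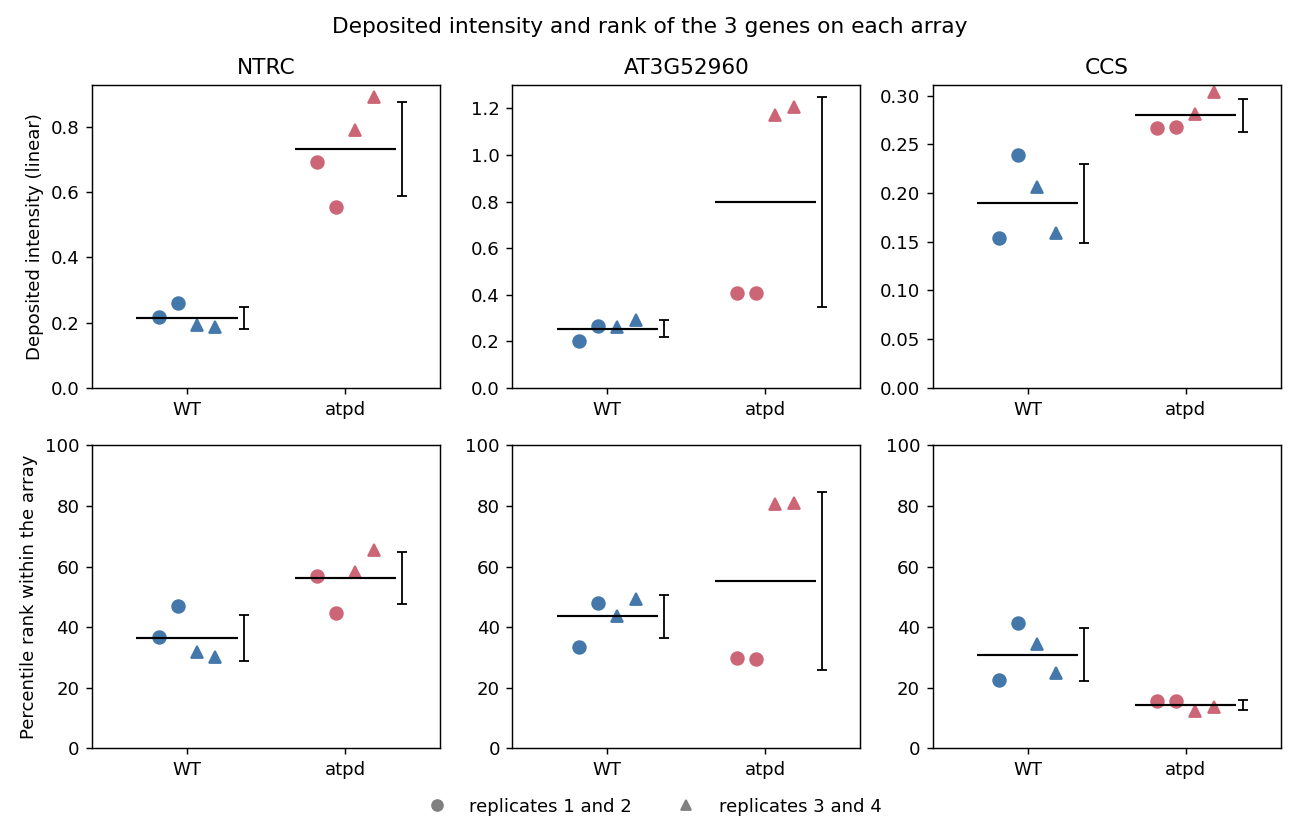
Deposited intensity (top, linear scale starting at 0) and percentile rank within the array (bottom) of NTRC, AT3G52960 and CCS on 4 WT and 4 *atpd* arrays, with each array as a point (circles, replicates 1 and 2; triangles, replicates 3 and 4), the mean as a line and the SD as a bar. For CCS all *atpd* points lie above the WT points by intensity and below them by rank, and for AT3G52960 the *atpd* arrays form 2 pairs, near rank 30 and near rank 81.

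CCS gave opposite directions by intensity and by rank. Its deposited intensity was 0.154, 0.239, 0.206 and 0.159 on WT replicates 1 to 4 and 0.267, 0.268, 0.281 and 0.303 on the *atpd* replicates. All *atpd* arrays were above all WT arrays, with means of 0.280 ± 0.0170 and 0.189 ± 0.0403 (SD, n = 4 in each), a ratio of 1.48. By rank the order turned. CCS stood at 22.6, 41.5, 34.4 and 25.02 on the WT arrays and at 15.7, 15.6, 12.4 and 13.7 on the *atpd* arrays. Every *atpd* rank lay below every WT rank, and the WT ranks spread far more widely than those of *atpd*. The mean rank fell by 16.5 points, from 30.9 to 14.3 (exact permutation test, two-sided p = 0.0286, the smallest that 70 splits allow; adjusted p = 0.0559). At an adjusted p of 0.05 this rank test called 0 of 2848 probes, while 1456 (51.1%) were under 0.05 unadjusted. All *atpd* ranks lay below all WT ranks in 30.3% of the 2848 probes. A turn of this kind, fully separated upward by intensity and downward by rank, was found in 5.3% of them, 151 probes.

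After quantile normalisation CCS fell by 0.74 on the log2 scale (SE 0.18, 95% interval -1.14 to -0.33, limma adjusted p = 0.00755), to 0.601 of the WT level. It was also lower with equal array medians (-0.58, adjusted p = 0.0258) and after cyclic loess (-0.62, adjusted p = 0.0190). On the deposited scale the sign was the opposite, 0.58 (adjusted p = 0.0139), and 0.41 below the median change of all probes there. The direction of CCS thus holds relative to the other probes of the array and not as an absolute intensity. Probes called higher as deposited and lower after quantile normalisation made up 4.76% of those tested. The array sets gave changes of -0.68 in replicates 1 and 2 (adjusted p = 0.0973) and -0.79 in replicates 3 and 4 (adjusted p = 0.0187). The difference between these changes was -0.11 (95% interval -0.93 to 0.71, adjusted p = 0.853), an interval too wide to show that they are alike. Treating array pairs as a random block ended the CCS call (adjusted p = 0.143), as did pair means (0.114).

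AT3G52960, the peroxiredoxin IIE gene, differed widely among the *atpd* arrays. Its deposited intensity was 0.202, 0.265, 0.259 and 0.292 on WT replicates 1 to 4. On the *atpd* arrays it was 0.408 and 0.406 on replicates 1 and 2 but 1.17 and 1.21 on replicates 3 and 4. All *atpd* arrays exceeded all WT arrays, with means of 0.797 ± 0.451 and 0.255 ± 0.0381 (SD, n = 4 in each), a ratio of 3.13. The *atpd* arrays themselves formed 2 tight pairs, 2.92-fold apart. In WT replicates 3 and 4 were 1.18-fold replicates 1 and 2. By rank AT3G52960 stood at 33.5, 48.0, 43.6 and 49.4 on the WT arrays. On the *atpd* arrays it stood at 29.9 and 29.6 on replicates 1 and 2, below every WT array, and at 80.6 and 81.1 on replicates 3 and 4, above every WT array. The mean rank was 43.6 ± 7.18 in WT and 55.3 ± 29.5 in *atpd* (SD, n = 4 in each), a difference of 11.7 points (exact permutation test, two-sided p = 0.486, adjusted p = 0.578).

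Over all arrays the log2 change of AT3G52960 after quantile normalisation was 0.39 (SE 0.42, 95% interval -0.56 to 1.35, limma adjusted p = 0.460). As deposited it was 1.46 (adjusted p = 0.0119), 0.47 above the median change of all probes. Within replicates 1 and 2 the change was -0.34 (adjusted p = 0.192) and within replicates 3 and 4 it was 1.13 (adjusted p = 0.00340). The change in replicates 3 and 4 exceeded that in replicates 1 and 2 by 1.47 (SE 0.23, 95% interval 0.91 to 2.03, limma interaction adjusted p = 0.0196), 1 of 3 genes against 8.63% of all tested probes for this test. The difference was 1.29 as deposited, 1.19 for equal array medians and 1.13 for cyclic loess, past the threshold in each (largest adjusted p = 0.0401), where 10.3%, 10.9% and 9.14% of all probes passed. Once replicate numbers entered as a block it was not (adjusted p = 0.0685). These fits take their error from the spread inside array pairs, and such pairs might be technical repeats. Opposite signs in the array sets were found for 19.9% of 2848 probes.

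**Figure D2:**
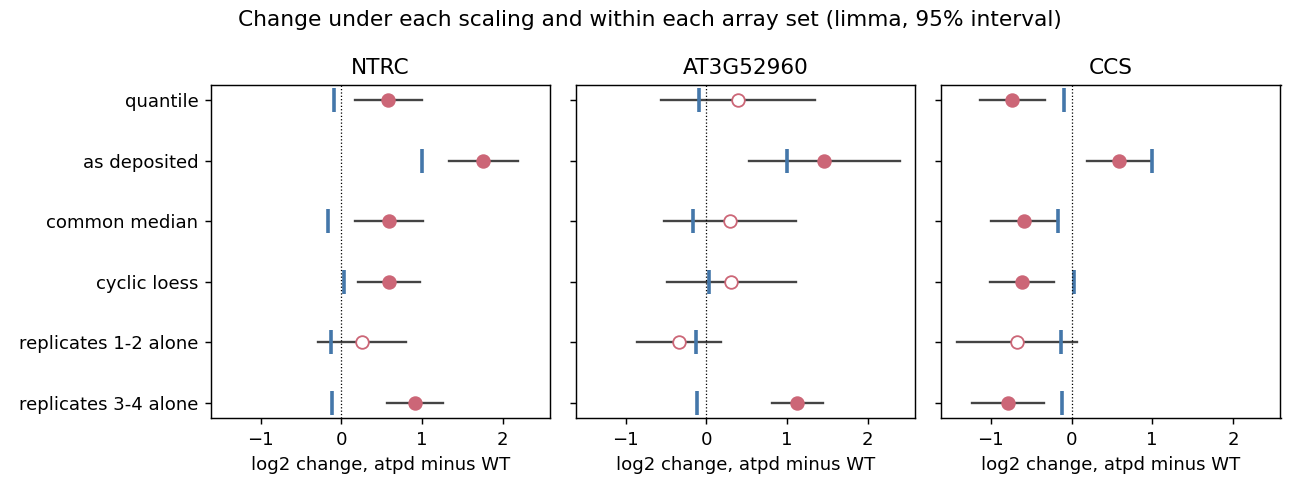
Log2 change, *atpd* minus WT, of the 3 genes under 4 scalings of all 8 arrays and within each array set after quantile normalisation. Points are limma estimates with 95% intervals, filled where the adjusted p is under 0.05, and the blue tick is the median change of all tested probes in the same fit. NTRC lies above the tick and CCS below it in every row, while AT3G52960 moves from -0.34 in replicates 1 and 2 to 1.13 in replicates 3 and 4.

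Most probes with numbers close to that of AT3G52960 had an array-set difference in the same direction. Of the 11 other tested probes within 10 numbers, 10 had a larger change in replicates 3 and 4 than in replicates 1 and 2, and 5 of these passed the interaction test. Over all tested probes 49.6% leaned that way and 4.35% passed. On the *atpd* arrays these 11 probes were 1.23-fold to 2.79-fold brighter in replicates 3 and 4 than in replicates 1 and 2 (median 2.04, against 1.04 for all probes). On the WT arrays this ratio ran from 0.338 to 6.46 (median 0.74, against 0.981 for all probes), while AT3G52960 was at 1.18. These probes thus differed in how far WT entered their set difference. The probe 1 number above AT3G52960 had WT means of 0.413 in replicates 1 and 2 and 0.436 in replicates 3 and 4. The probe 3 numbers above it had WT means of 0.176 and 0.0595. The median change of the 11 probes was -0.73 in replicates 1 and 2 and 0.91 in replicates 3 and 4. Whether probe numbers follow the position on the array is not stated, and the part of position in the AT3G52960 result was not tested.

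Around NTRC, *atpd* replicates 3 and 4 were 0.849-fold to 1.35-fold replicates 1 and 2 over 13 probes, and NTRC itself was at 1.35. Around CCS this ratio ran from 0.884 to 2.77 over 14 probes (median 1.17), and CCS was at 1.09. On the WT arrays the ratio ran from 0.326 to 5.60 around NTRC and from 0.489 to 2.68 around CCS. The set difference was positive and past the threshold in 3 of the 14 probes around CCS and in 1 of the 13 around NTRC, against 4.35% of all tested probes. Around NTRC, negative differences of -1.347 (limma interaction adjusted p = 0.0215) and -2.085 (adjusted p = 0.0138) passed as well. Across all pairs of tested probes with consecutive numbers, the array-set difference correlated at r = 0.275 (1883 pairs), at 0.251 for numbers 2 apart and at 0.0985 for numbers 5 apart. The change over all 8 arrays correlated at 0.0192 for consecutive numbers. These correlations are descriptive, since the points share the same arrays. With the median deviation of the probes within 5 numbers taken off each array, a setting chosen after the data were seen, the array-set difference of AT3G52960 was 0.26 (adjusted p = 0.649) and its change over all arrays was 0.62 (adjusted p = 0.0100). On that scale NTRC was at 0.38 (adjusted p = 0.220) and CCS at -0.40 (adjusted p = 0.198), neither past the threshold, where 56.9% of all probes were called.

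**Figure D3:**
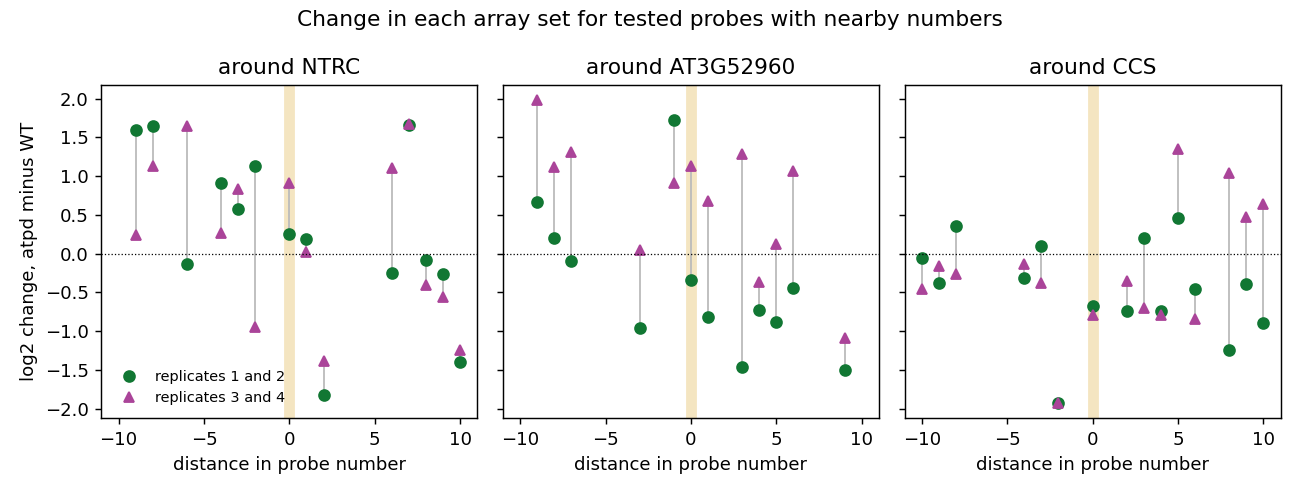
Log2 change, *atpd* minus WT after quantile normalisation, within replicates 1 and 2 (circles) and within replicates 3 and 4 (triangles) for tested probes up to 10 numbers from NTRC, AT3G52960 and CCS (shaded), with a grey line joining both values of a probe. Around AT3G52960 the triangle lies above the circle for 10 of 11 other probes, and around NTRC for 6 of 13.

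The other genes of the same chemistry were represented thinly. Of 92 listed loci for thioredoxins and their reductases, peroxidases, superoxide dismutases and copper delivery, the ascorbate-glutathione cycle, ferredoxin and NADPH supply, and thioredoxin-regulated enzymes, 9 had a single-gene probe and 8 were tested. Beside the 3 genes above, 3 of 5 fell and none rose, against 30.4% lower and 21.4% higher among all tested probes. As deposited, 2 of the 5 (SRX and CHLM) were called higher and 3 lower, against 62.6% and 8.9% of all probes. After quantile normalisation the median change of the 5 was -1.51, that of all tested probes -0.09. None of the 21 loci of the ascorbate-glutathione cycle and catalases had a single-gene probe. CCS was the only one tested of 17 loci for superoxide dismutases and copper delivery, so its client enzymes are not analysed here.

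AT2G04700, on the list of thioredoxins and their reductases with NTRC and not named in the reference, moved the opposite way to NTRC. Its intensity was 0.626, 0.499, 0.606 and 0.663 on WT replicates 1 to 4 and 0.276, 0.218, 0.265 and 0.253 on the *atpd* replicates. The mean rank went from 77.4 to 12.03 with no overlap, and the log2 change was -2.39 (SE 0.15, limma adjusted p = 8.95e-06). It was lower under each scaling, from -1.24 as deposited to -2.42 after cyclic loess. AT5G58330, the NADP-dependent malate dehydrogenase that exports reducing power from the stroma and is activated by thioredoxin, was lower too. Its intensity was 0.805, 0.755, 0.984 and 0.926 on WT arrays and 0.588, 0.603, 0.536 and 0.539 on *atpd* arrays. The mean rank went from 86.6 to 41.8, and the log2 change was -1.57 (SE 0.15, adjusted p = 6.1e-05), -0.61 as deposited and -1.78 with equal array medians.

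SRX, the sulfiredoxin that restores overoxidised 2-Cys peroxiredoxins, the substrates of NTRC, did not pass the test. Its intensity was 0.235 to 0.374 in WT and 0.609 to 0.685 in *atpd*, but its mean ranks were 52.1 and 48.2, with a log2 change of -0.11 (SE 0.17, adjusted p = 0.609), against 1.06 as deposited (adjusted p = 0.000678). Among the thioredoxin-regulated enzymes, PRK, which makes ribulose bisphosphate as phosphoribulokinase, fell by 1.51 (adjusted p = 2.61e-05), from an intensity of 3.77 ± 0.408 to 1.59 ± 0.0534, at mean ranks of 97.0 and 89.9. Its change was -0.87 with cyclic loess and -2.41 with equal array medians, past the threshold in both. CHLM, the magnesium protoporphyrin methyltransferase of chlorophyll synthesis, a known redox target of NTRC, was at -0.02 (adjusted p = 0.938), and at 1.01 as deposited (adjusted p = 0.000607), with ranks of 66.5 and 65.7. SBPASE, a further Calvin cycle enzyme, was above 0 on WT replicate 2 only and was not tested. The array-set difference passed the test in AT3G52960 and in none of the other 7, where 8.63% of all tested probes passed.

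**Figure D4:**
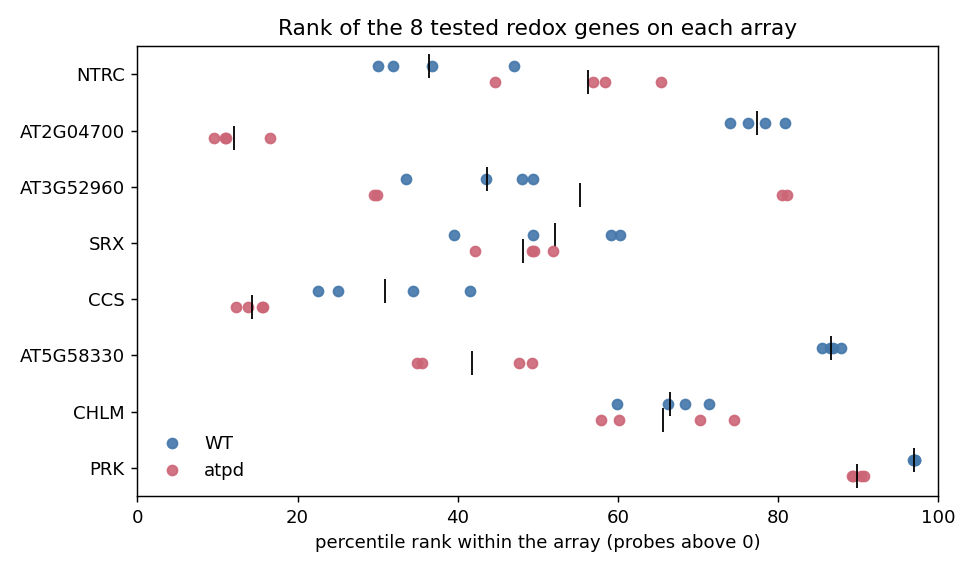
Percentile rank within the array of the 8 tested redox genes, with each WT and *atpd* array as a point and the mean of a genotype as a tick. AT2G04700 and AT5G58330 separate the genotypes most widely, SRX and CHLM overlap, and the *atpd* points of AT3G52960 split into 2 pairs.

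Genes whose profiles lay closest to each member were taken from 570 single-gene probes above 0 on all arrays, by Pearson correlation of the normalised log2 values over the 8 arrays, given as a description. For NTRC these were AT5G46390 (r = 0.946), AT1G13370 (r = 0.939) and AT1G01080 (r = 0.917). All 3 were called higher, with log2 changes of 1.04, 1.10 and 1.09, where 21.4% of all tested probes were. For each member, the choice by correlation over both genotypes favours genes with a like direction and call. For AT3G52960 they were AT1G50880 (r = 0.954), AT2G44760 (r = 0.951) and AGL103 (r = 0.941), which like it did not pass the test over all arrays. Their probe numbers lie 458 to 1746 from that of AT3G52960. For the 3 genes closest to NTRC the distance is 69 to 1854. The closest to CCS were AT2G25640 (r = 0.959), AT4G00170 (r = 0.942) and AT4G09970 (r = 0.934), with changes of -1.01, -0.60 and -0.83. Their probe numbers lie 27 to 3222 from that of CCS. The part of position in these profiles was not tested. AT4G00170 and AT4G09970, like CCS, had higher mean intensities in *atpd* as deposited (0.348 over 0.223, and 0.260 over 0.181), while AT2G25640 was lower (0.919 against 1.07). The points share 8 arrays in 2 sets, and 17 candidates exceeded r = 0.9 for CCS against 4 each for NTRC and AT3G52960.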

How the data were processed

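Per the labels, 8 arrays of total RNA were read, and the sample titles give genotype and replicate number. Every title also opens with the same number, which the titles do not explain. The deposited values are linear intensity readings. Neither labels nor file headers say what background correction or scaling the authors applied, or why some values are 0. Probes were named by the platform annotation and matched to the reference gene table (TAIR10.1) for names only.

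Values at or below 0 were missing. Log2 values of all positive probes were quantile-normalised, and probes with 3 or more values per genotype were kept. They were fitted with limma 3.58.1 (lmFit, eBayes, R 4.3.3; statmod 1.5.0 for random blocks), two-sided, Benjamini-Hochberg adjusted over all tested probes, threshold 0.05. Array-set differences are the interaction term of genotype and set. Ranks were tested by exact permutation of single arrays, which takes no account of the array pairs. The consensus correlation within array pairs was 0.688. Scripts were tested on simulated data.

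The members, lists and tests were chosen with earlier results of these data known. Named genes are the members, the tested list genes and the 3 closest profiles of each member. For tested list genes, 6 of 8 labels were found in the reference; AT2G04700 and AT3G52960 have only their locus tags there. Arrays sharing a number across genotypes deviated together (r = 0.362, 0.277, 0.289 and 0.276 across probes), and numbers were treated as pairing the arrays in an alternative fit. Alternatives changed scaling, zeros, filters, pseudocount, blocks, array sets, priors and weights, and left out each array.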

Additional observations from a re-analysis of the deposited data

Results flagged for a closer look

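The change of AT3G52960 differed between the array sets by 1.47 on the log2 scale (limma interaction adjusted p = 0.0196), with all WT arrays at intensities of 0.202 to 0.292, *atpd* replicates 1 and 2 at 0.406 to 0.408 and *atpd* replicates 3 and 4 at 1.17 to 1.21. Of the 11 other tested probes with nearby numbers, 10 had a difference in the same direction, against 49.6% of all tested probes. The AT3G52960 set difference was not past the threshold with replicate numbers as a block (limma interaction adjusted p = 0.0685). Relative to neighbouring probes it was 0.26 (adjusted p = 0.649). What the nearby probes share with the AT3G52960 result was not tested. Among the 8 tested redox genes no other set difference passed the threshold, where 8.63% of all tested probes passed. In 16 groups of 4 normalised values, no single array stood far apart from its genotype.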

How the results depend on the processing

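The number of called probes was 1513 (625 higher, 888 lower). It was 924 with array pairs as a random block and 686 with pair means. It was 1599 in replicates 1 and 2 alone, 1703 in replicates 3 and 4 alone and 1301 to 1499 with each array left out. As deposited 1829 probes were higher and 260 lower. With replicate numbers entered as a block to pair the arrays, 1656 were called. That block ended the calls of NTRC (0.58, adjusted p = 0.0591) and of the AT3G52960 set difference (1.47, adjusted p = 0.0685), and of no other member result. NTRC kept its direction in every setting run, at 0.58 with array pairs as a random block and with pair means, 0.25 in replicates 1 and 2 alone and 0.38 relative to neighbouring probes, all without a call, and at 0.50 to 0.70 with each array left out. AT3G52960 turned to -0.34 in replicates 1 and 2 alone. It gained a call as deposited (1.46), in replicates 3 and 4 alone (1.13) and relative to neighbouring probes (0.62), and ranged from 0.13 to 0.68 with each array left out. Its set difference was 0.26 relative to neighbouring probes. CCS turned to 0.58 as deposited. It lost its call at -0.74 with array pairs as a random block and with pair means, at -0.68 in replicates 1 and 2 alone and at -0.40 relative to neighbouring probes, and ranged from -0.84 to -0.62 with each array left out. It is too dim to be kept by the filter at the 25th percentile of intensity. Its set difference, not past the threshold, turned to 0.21 as deposited and 0.10 with a common median. The rank differences ranged from 16.9 to 23.7 for NTRC, 3.08 to 20.2 for AT3G52960 and -19.3 to -13.0 for CCS with each array left out, and kept their direction among all probes and among single-gene probes. The cause of these shifts was not tested.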
